A study of Mus musculus with 4 samples.

Results

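Transcripts of the proteases that cut extracellular matrix, and of the tissue inhibitors that restrain them, were examined in the atrioventricular canal (AVC) of mouse embryos at e10.5, counted in days from the plug. The set was taken by name, with earlier results of these data known. Eligible genes had a symbol on the array that starts with Mmp, Timp, Adamts (Adamtsl included) or Adam followed by a digit. The rule also asked for a probe well above background in either channel on at least 3 of 4 arrays. Of 75 such genes on the array, 54 met the rule, through 82 of 130 probes, among 19099 genes tested in all. They were 4 Timp, 11 Mmp, 19 Adam, 15 Adamts and 5 Adamtsl genes. The label of the set was borne out by the symbols for most members, but 8 of the Adam genes (Adam1a, Adam1b, Adam2, Adam3, Adam4, Adam5, Adam18 and Adam21) belong to a branch known mainly from germ cells, and Adam11 and Adam23 lack protease activity and act in neural adhesion.

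The AVC is the heart segment between atria and ventricles in which the endocardial cushions form. The design compared 2 conditions, wild type control embryos and embryos with a hypomorphic Tbx3 genotype. Tbx3 encodes a T-box repressor expressed in the AVC, and the comparison asks which transcripts depend on its dose. Both groups had a mixed background of Sv129 and C57Bl6 in equal parts, and neither the structure of the mutant allele nor the sex of the embryos is in the labels. Each sample was a pool of micro-dissected AVC from 5 hearts. Each of 4 arrays carried 1 control pool in Cy3 (green) and 1 mutant pool in Cy5 (red), so the 8 pools give 4 ratios. Because the dyes lie the same way on all 4 arrays, a dye effect on a probe and an effect of the genotype cannot be told apart.

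Matrix metalloproteinases (Mmp) degrade collagens and other matrix proteins, some as secreted enzymes and some anchored in the cell membrane, and Timp proteins bind and block them. Adam proteases sit in the membrane and release the outer part of growth factors, Notch and adhesion molecules. Adamts proteases are secreted and cut proteoglycans such as versican or trim procollagen, and Adamtsl proteins resemble them but have no catalytic domain. In the cushions this machinery remodels the hyaluronan- and versican-rich cardiac jelly and accompanies the invasion of mesenchymal cells.

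Ratios below are log2 of mutant over control after background correction and loess within each array, given as mean ± SD over 4 arrays (n = 4), and levels are log2 signals of each pool after a further scaling between arrays. The tests are limma's moderated test of the ratio against 0, 2-sided, with p-values adjusted by Benjamini-Hochberg over all 19099 genes and a threshold of 0.05. Tbx3 itself was lower on all 4 arrays, from -1.43 to -1.21, and was the only gene past the threshold. Markers of the labelled tissue were present: all 8 myocardial, 9 cushion mesenchyme and 7 endocardial markers examined were above background. Array 2 stood apart. Its ratios correlated at between -0.06 and 0.07 with those of the other arrays over all genes, against 0.25 to 0.66 among arrays 1, 3 and 4. In the members below -1 on array 2, control pool 2 stood above the other control pools (below). In some other members mutant pool 2 stood apart. For Adam10 it was at 8.46 against 8.96 to 9.33 in the other mutant pools, and for Adam17 at 10.91 against 10.30 to 10.68. Results that rest on array 2 are therefore also given without it.

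None of the 54 genes passed the threshold, with a background of 0.00524% of all genes (limma). At an unadjusted p under 0.05 there were 12 of 54, or 22.2%, against a background of 14.5%. Of these 12, 11 had lower values in the mutant (20.4% of members, background 7.45%) and 1 had a higher value, Adamts8 (1.85% of members, background 7.09%). With moderation by a trend and robust variances limma gave 0 members past the threshold and 11 at an unadjusted p under 0.05, 1 higher and 10 lower. The share of all genes in that fit is not given here, so this count has no background beside it. With array weights 10 members passed the threshold (background 14.6%). Without array 3 the count of 12 became 7 (7.85% of all genes), and without array 4 it became 6 (8.05% of all genes), so the share fell for all genes too. When each array was only centred on its median, without loess, 16 of 54 members had an unadjusted p under 0.05 (52.5% of all genes in that fit), of which 10 were higher and 6 lower, and 12 passed the threshold (background 40.8%); the median of all genes then stood at 0.23.

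The members as a whole lay slightly below the other genes. Their median ratio was -0.10, with the middle quartiles from -0.24 to 0.01, against a median of 0.0012 for all genes tested. On arrays 1 to 4 the member medians were -0.14, -0.17, -0.03 and -0.04, so they were lower by more on arrays 1 and 2 than on arrays 3 and 4. The mean ratio was negative for 39 of 54 members, or 72.2%, against a background of 49.7%. Without array 2 it was negative for 33, or 61.1%, against a background of 47.6%, and the member median was -0.07. Relative to the median of all genes the member median was between -0.29 and -0.06 in each of the 14 alternatives that refit the genes, and in the fit without loess, where all genes shifted up, 39 members again lay below the median of all genes. By family, the median lay below that of all genes in all 14 alternatives for Timp, Mmp, Adam and Adamts, and in 11 of 14 for Adamtsl. For Adam the gap was small, at -0.02 in the main fit and between -0.29 and -0.01 over the alternatives. The alternatives reuse the same 4 arrays, so they are not independent of each other. No test of the set was made.

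The same sign on all 4 arrays was seen for 19 members, or 35.2%, against a background of 24.9%. Of these, 16 were negative (background 12.6%) and 3 positive, namely Adamts8, Adamts6 and Mmp7 (background 12.3%). Without array 2, 18 members (33.3%; background 23.2%) had an unadjusted p under 0.05, of which 14 were lower (background 11.2%) and 4 higher (background 12.0%). On arrays 1, 3 and 4, 21 members were negative throughout (background 22.9%) and 9 positive throughout (background 23.6%).

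The pools themselves were then compared. In 6 members every mutant pool lay below every control pool (background 5.11%): Adamts15, Adamts5, Adamts7, Adamts10, Adam1a and Timp1. In the single member Adamts8 every mutant pool lay above every control pool (background 3.89%).

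**Figure D1:**
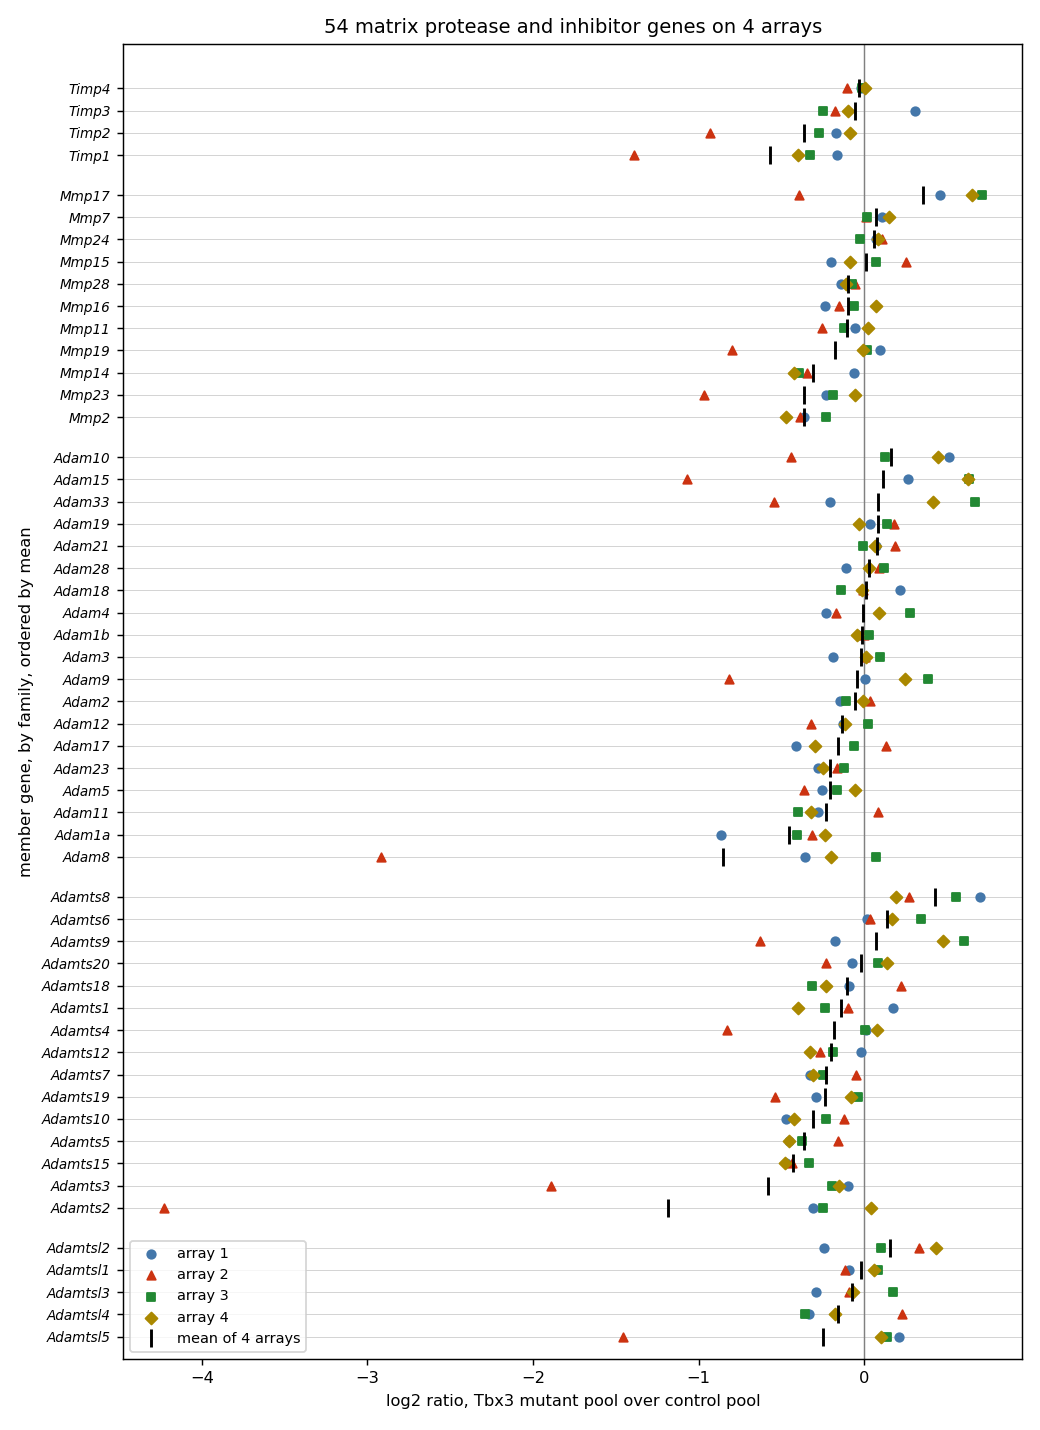
Log2 ratios of the mutant pool over the control pool (horizontal axis) for all 54 member genes (vertical axis, by family), with 1 symbol per array and a bar at the mean. Most means after loess lie left of 0, and the lowest points, down to -4.23 for Adamts2, are all from array 2.

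Adamts15, a secreted protease that cleaves versican and aggrecan, had the smallest p of the set. Its control pools stood at 11.92, 12.14, 12.09 and 12.04 and its mutant pools at 11.45, 11.71, 11.76 and 11.56. All mutant pools were below all control pools, and the ratios of -0.47, -0.43, -0.33 and -0.48 spread little. The mean was -0.43 ± 0.07, a 1.35-fold lower signal, with an unadjusted p of 0.0006 and an adjusted p of 0.13. Its 95% interval ran from -0.58 to -0.28. In the fit without loess it stood at -0.06 (adjusted p = 0.476; range over the alternatives 0.0157 to 0.606), which is 0.29 below the median of all genes in that fit. Array 2 shared this reading, which a single probe carried.

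Adamts5, an aggrecanase that also cleaves versican in the developing cushions, read -0.45, -0.16, -0.38 and -0.46. Its control pools lay between 9.55 and 9.71 and its mutant pools between 9.11 and 9.55, so the groups separated by less than the spread within them. The mean was -0.36 ± 0.14 (adjusted p = 0.16), and -0.43 without array 2. The 2 probes of this gene did not give the same reading: the dimmer probe stood at -0.06 ± 0.15, with positive ratios on arrays 3 and 4. Its levels were near background, between 6.36 and 6.58, which limits what its ratio can show.

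Adamts10, which binds fibrillin microfibrils, read -0.47, -0.12, -0.23 and -0.42, with a mean of -0.31 ± 0.16 (adjusted p = 0.21). Control pools were at 8.66 to 8.76 and mutant pools at 8.29 to 8.61. Its 3 probes all had negative means, the others at -0.20 and -0.16, and the groups did not overlap for the brightest. Adamts7 and Adamts12, related proteases known to cleave cartilage oligomeric matrix protein, stood at -0.23 ± 0.13 and -0.20 ± 0.13. The second probe of Adamts7 was also lower (-0.27), whereas that of Adamts12 stood at 0.06.

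Adamts8, a protease with weak aggrecanase activity, was the counterexample. Control pools were at 10.82, 10.90, 10.86 and 11.13 and mutant pools at 11.51, 11.17, 11.42 and 11.33. The highest control pool, on array 4, came close to the lowest mutant pool, on array 2, but the groups did not overlap. The ratios of 0.70, 0.27, 0.56 and 0.19 gave a mean of 0.43 ± 0.24 (1.35-fold; adjusted p = 0.20), with a 95% interval from 0.17 to 0.69. The second probe read 0.49, 0.28, 0.44 and 0.22, close to the first on every array. The mean was positive under all 14 alternatives, between 0.34 and 0.77.

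Adamts8 and Adamts15 are neighbours in the genome, with no protein-coding gene between them in the RefSeq table of build GRCm38.p6. Their probes lie 61720 bases apart on chromosome 9 in build mm7, the build of the array files. On each of the 4 arrays Adamts8 had a positive and Adamts15 a negative ratio. The pair was singled out after its values were seen. Adamts1 and Adamts5, on chromosome 16, are likewise neighbours, and there the ratios had the same sign on 3 of 4 arrays.

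Each gene of the set is read through 60-base probes, and the 2 probes of Adamts8 and the 2 of Adamts5 show how far probes of a gene can be set beside each other. The first 30 bases of each are given in lower case as the files list them, with no strand stated, and the names carry the mm7 position; no annotation of that build was used, so exons and untranslated regions are not assigned.
Adamts8, chr9:30862193-30862252, mean 0.43: tgttggcagtgaacgccaaagcaagctcca
Adamts8, chr9:30862134-30862193, mean 0.36: caataatcaatctacctcacagcggggaaa
Adamts5, chr16:85858359-85858419, mean -0.36: gagtcgaattatgggcagaatctgctctct
Adamts5, chr16:85854881-85854940, mean -0.06: tttgtgtatttctaataccagtcataacct
The Adamts8 probes abut in the genome and gave like ratios. Those of Adamts5 differed, but the probe at -0.06 was near background, and the 2 are designed to different transcript records.

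The other versican-cleaving proteases gave no common direction. Adamts1 read 0.17, -0.10, -0.24 and -0.40 (mean -0.14 ± 0.24) and stood at 0.25 without loess. Adamts9, which is needed for versican turnover in the heart, read -0.18, -0.63, 0.60 and 0.48 (mean 0.07 ± 0.58), positive on arrays 3 and 4 only, and its mean turned to -0.11 without array 3 and to -0.07 without array 4. Adamts20 read -0.08, -0.23, 0.08 and 0.13 (mean -0.02 ± 0.17). Adamts6, a microfibril-associated protease, read 0.01, 0.04, 0.34 and 0.17 (mean 0.14 ± 0.15; adjusted p = 0.48), of which the first and second are within 0.05 of 0. Of the 15 Adamts genes, 12 had negative means, with a family median of -0.20. Among the 5 Adamtsl genes none had an unadjusted p under 0.05 by limma and 4 had negative means, between -0.25 and -0.02. Adamtsl1 was read from the probe that carries its symbol. A brighter probe of Adamtsl1, listed under another name, had a mean of 0.01, with -0.74 on array 2.

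**Figure D2:**
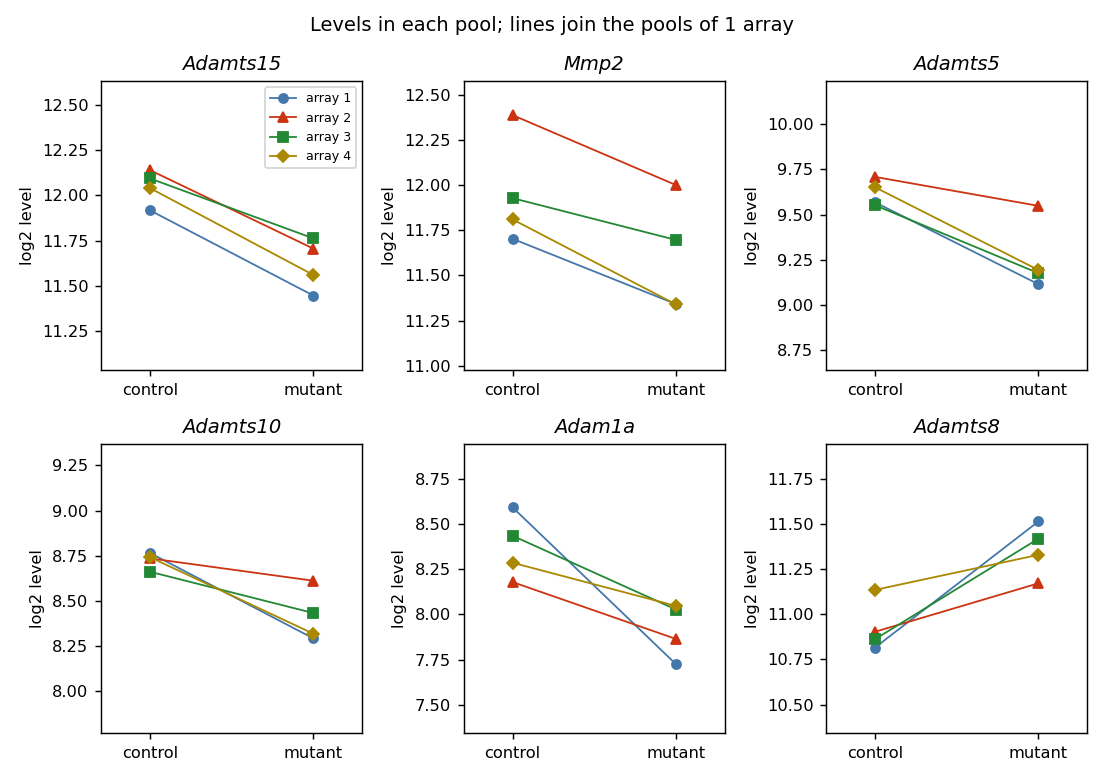
Log2 levels (vertical axes, all spanning the same range of log2 units) of 6 member genes in the control and the mutant pool of each array, joined by a line per array. All lines fall for Adamts15, Mmp2, Adamts5, Adamts10 and Adam1a and rise for Adamts8, and only for Mmp2 do the pools of the groups overlap.

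Among the metalloproteinases, Mmp2 (gelatinase A, which cuts basement membrane collagen) and Mmp14 (the membrane-type enzyme that activates it) had the 2 smallest p-values. Mmp2 stood at 11.70, 12.39, 11.93 and 11.81 in control pools and at 11.34, 12.00, 11.70 and 11.34 in mutant pools. Both pools of array 2 were the highest of their group, so the groups overlapped, while each ratio was negative (-0.36, -0.39, -0.23 and -0.47). The mean was -0.36 ± 0.10, or 1.29-fold lower (unadjusted p = 0.0021; adjusted p = 0.14). A single probe carried this reading, and without loess it stood at -0.0021, which is 0.23 below the median of all genes there (adjusted p = 0.983; range 0.0271 to 0.983).

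Mmp14 read -0.06, -0.35, -0.39 and -0.43 (mean -0.31 ± 0.17; adjusted p = 0.22). Without loess its direction turned, to 0.31 (adjusted p = 0.0367; range 0.0226 to 0.636), and it was then also 0.08 above the median of all genes. Its second probe had a mean of -0.37 ± 0.54, negative on arrays 1, 3 and 4 and at 0.39 on array 2. The sign for Mmp14 thus rested on the normalization, and on array 2 its 2 probes disagreed.

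The remaining membrane-type enzymes had no common direction. Mmp15 read -0.20, 0.25, 0.07 and -0.09 (mean 0.01 ± 0.20), and Mmp16 read -0.24, -0.15, -0.06 and 0.07 (mean -0.10 ± 0.13). Mmp17, a glycosylphosphatidylinositol-anchored enzyme, read 0.46, -0.39, 0.71 and 0.65, so array 2 opposed the others. Its mean was 0.36 ± 0.51 (adjusted p = 0.48). Control pool 2 stood at 9.25 against 8.35 to 8.48 in the other control pools, while the mutant pools lay between 8.86 and 9.07. Without array 2 the mean was 0.60 ± 0.13 over 3 arrays and Mmp17 was the single member past the threshold (adjusted p = 0.0498; range over the alternatives 0.0238 to 0.793; background 1.01%). The second probe repeated the pattern, at 0.23, -0.30, 0.58 and 0.57. Mmp17 was singled out after its values were seen. Like Tbx3 it lies on chromosome 5, and the part of sequence linked to the mutant allele was not tested.

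Mmp11 (stromelysin 3) read -0.06, -0.26, -0.13 and 0.03 (mean -0.10 ± 0.12). Mmp23 read -0.23, -0.97, -0.19 and -0.06 (mean -0.36 ± 0.41), and -0.16 without array 2. Mmp7 (matrilysin) read 0.11, 0.01, 0.01 and 0.15, with 2 of its 4 control pools not well above background, and stood at -0.15 without loess. None of the 3 had an unadjusted p under 0.05 by limma.

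Mmp9 (gelatinase B), Mmp3, Mmp8, Mmp10, Mmp12, Mmp13, Mmp20, Mmp21, Mmp25 and Mmp1a were on the array but reached the background criterion on 1 array or none. These include most of the secreted collagenases and stromelysins and the metalloproteinases typical of leukocytes. Adamts16 was just outside the rule, above background on 2 arrays with ratios of -0.30, -0.79, 0.15 and -0.03, and Adam2 and Adam3 were just inside, on 3 arrays, with ratios between -0.19 and 0.09. A gene below background has a bound only, and no ratio is given for the other 20 genes left out.

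The 4 inhibitors had negative means, which for Timp2 and Timp3 turned positive without loess and for Timp4 with the processed ratio of the scanner software (0.048). Timp1 stood at 11.87, 13.05, 11.96 and 11.85 in control pools and at 11.70, 11.66, 11.63 and 11.46 in mutant pools. The groups did not overlap, but control pool 2 lay far above the rest, and the ratios were -0.17, -1.39, -0.33 and -0.40. The mean was -0.57 ± 0.56 (adjusted p = 0.32) and, without array 2, -0.30 ± 0.12 (adjusted p = 0.105; range 0.0587 to 0.653), so that array 2 set nearly all of the spread. Its other 2 probes had means of -0.23 and -0.31, each with its lowest value on array 2.

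Timp2, which also takes part in the activation of Mmp2 by Mmp14, read -0.17, -0.93, -0.27 and -0.09 (mean -0.37 ± 0.39; adjusted p = 0.36), and -0.18 ± 0.09 without array 2. Without loess it turned to 0.16, which is 0.07 below the median of all genes in that fit. Timp3, an inhibitor bound to the matrix that also blocks Adam17 and Adamts enzymes, read 0.30, -0.18, -0.25 and -0.10 (mean -0.06 ± 0.25), and without loess 0.40. Timp4 was near background, with levels between 6.36 and 6.52, and read -0.03 ± 0.05. For the inhibitors the direction was shared on all 4 arrays by Timp1 and Timp2 only.

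In the Adam family, Adam10 and Adam17, the main sheddases of Notch and of growth factor precursors, gave different readings. Adam10 read 0.51, -0.44, 0.12 and 0.44 (mean 0.16 ± 0.43), with a mean of 0.36 ± 0.21 without array 2. Adam17 read -0.41, 0.13, -0.06 and -0.29 (mean -0.16 ± 0.24), and its second probe -0.26 ± 0.23; without loess the mean turned to 0.16. On arrays 1, 3 and 4 every Adam10 ratio was positive and every Adam17 ratio negative, and array 2 opposed them in both genes. The difference between the genes was not tested.

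Adam19, a sheddase that is needed for cushion and septum formation, read 0.04, 0.18, 0.14 and -0.03 (mean 0.08 ± 0.09). Its 3 probes had means of 0.08, 0.07 and 0.14. Adam12 read -0.13, -0.32, 0.02 and -0.12 (mean -0.14 ± 0.14). Adam15 (metargidin) read 0.27, -1.07, 0.63 and 0.63 (mean 0.11 ± 0.81), and the 3 arrays other than 2 gave 0.51 ± 0.21. None of these had an unadjusted p under 0.05 over 4 arrays.

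Adam1a, known as a fertilin subunit of sperm, had the lowest mean among the Adam genes of 1 sign on all 4 arrays. Its control pools stood at 8.59, 8.18, 8.44 and 8.29 and its mutant pools at 7.72, 7.86, 8.03 and 8.05, without overlap. The ratios were -0.87, -0.31, -0.41 and -0.24 (mean -0.46 ± 0.28; adjusted p = 0.21), with array 1 the lowest. A single probe carried this reading. Adam1a, Adam1b, Adamts3 and Mmp17 lie on chromosome 5, as does Tbx3, and the part of sequence linked to the mutant allele was not tested for any of them. Adam1b, the neighbour of Adam1a, was above background in 2 control and 2 mutant pools and read -0.01 ± 0.04. Adam23 and Adam5 were also lower at an unadjusted p under 0.05, at -0.20 ± 0.07 and -0.21 ± 0.13. The other 6 germ cell members had means between -0.06 and 0.08.

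**Figure D3:**
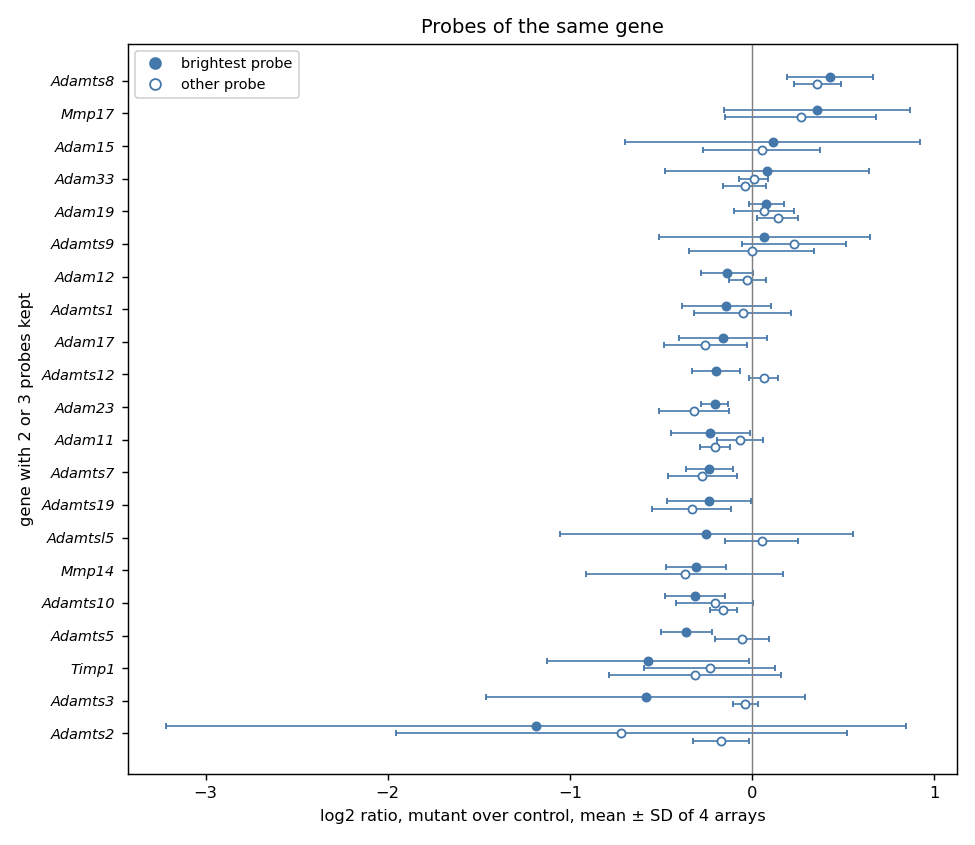
Mean log2 ratio ± SD over 4 arrays (horizontal axis) of every kept probe of the 21 member genes with 2 or 3 probes (vertical axis), filled for the brightest probe. In 17 genes all probes have a mean of the same sign, and the bars are widest for Adamts2, whose probes lie between -1.19 and -0.17.

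Agreement between probes was examined for the 21 members with 2 or more kept probes. The means had the same sign for all probes in 17 genes, 13 negative and 4 positive. The same count over all genes is not given here. Some of these probes lie close together, such as those of Adamts8 at 59 bases and Adam17 at 108 bases. The exceptions were Adam33, Adamts9, Adamts12 and Adamtsl5, in which at least 1 probe lay on the other side of 0. In 5 genes at least 1 probe was below -1 on array 2, and in none of them were all probes below -1.

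The largest single differences in the set came from array 2, and all were lower in the mutant. On that array 6 of 54 members (11.1%; background 3.55%) were below -1: Adamts2 at -4.23, Adam8 at -2.92, Adamts3 at -1.89, Adamtsl5 at -1.45, Timp1 at -1.39 and Adam15 at -1.07. By a criterion for a single outlying value (Dixon's, at 95%), array 2 stood apart on the low side for 6 members (11.1%; background 3.90%) and array 1, 3 or 4 for none (background 2.54%). No member was above 1 on array 2, against a background of 0.466%. Across the 54 genes the ratios had an SD of 0.788 on array 2, while arrays 1, 3 and 4 gave 0.266 to 0.281. Member ratios correlated across the 54 genes at 0.836 between arrays 3 and 4, at 0.487 and 0.535 between array 1 and those, and at -0.04 to 0.10 with array 2; genes are not independent replicates, and the arrays share their slide and dyes.

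Adamts2 and Adamts3 remove the amino-terminal propeptide of fibrillar procollagens. Adamts2 stood at 14.46 in control pool 2 against 8.80 to 9.13 in the other control pools, at 10.23 in mutant pool 2 and between 8.82 and 8.84 in the other mutant pools. Both pools of array 2 were thus the highest of their group, and the control pool by far. The ratios were -0.31, -4.23, -0.25 and 0.04, and without array 2 the mean went from -1.19 to -0.17.

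Adamts3 stood at 9.72 in control pool 2, at 8.08 to 8.22 in the other control pools and at 7.82 to 8.12 in the mutant pools. Its mean of -0.58 became -0.15 without array 2, with -0.10, -0.19 and -0.15 on the arrays left. The probes of these 2 genes differed on array 2 more than any others, and 4 of them are shown for that reason, again by their first 30 bases.
Adamts2, chr11:50760727-50760786, array 2 at -4.23: caaagaatccaggagctcattaatgcagtg
Adamts2, chr11:50754733-50754792, array 2 at -0.30: tgtgtaactgcaaattaaccctctcacgac
Adamts3, chr5:89648179-89648238, array 2 at -1.89: gctacttcatgcaaggattttaaatgtcga
Adamts3, chr5:89807975-89808034, array 2 at -0.14: ttgcatgtcctcatatgcttcatttctctc
In each gene the probe with the strongest signal had the lowest ratio on array 2, and at least 1 dimmer probe did not stand out there. The remaining Adamts2 probe, also dim, did stand out, at -2.56 on array 2. The dim Adamts3 probe lies far from the bright one in the genome, and whether the probes read the same transcript was not tested.

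Adam8, a protease best known from leukocytes, stood at 12.58 in control pool 2, 9.82 to 10.05 in the other control pools and 9.62 to 10.07 in the mutant pools. Its ratios were -0.36, -2.92, 0.07 and -0.20, and its mean of -0.85 became -0.16 without array 2. Adamtsl5 stood at 8.53 in control pool 2 and between 6.66 and 7.01 in the others, with ratios of 0.21, -1.45, 0.14 and 0.10; without array 2 its mean turned from -0.25 to 0.15. Adam15 likewise was at 11.66 in control pool 2 and at 10.55 to 10.68 in the others. Its mutant pool 2, at 10.59, was also the lowest of the mutant pools (10.89, 11.18 and 11.31 on arrays 1, 3 and 4), so both pools of array 2 entered its ratio. For Adam8 (mutant pool 2 at 9.66) and Adamtsl5 (7.07) mutant pool 2 lay within the range of the other mutant pools, and the control pool stood apart.

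**Figure D4:**
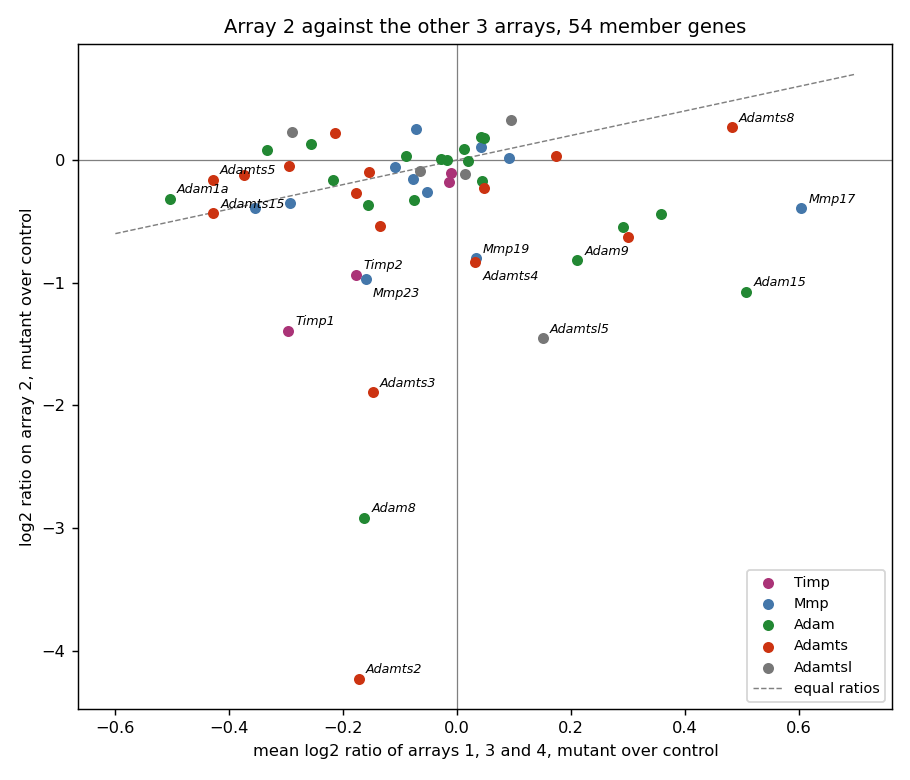
Log2 ratio on array 2 (vertical axis) against the mean ratio of arrays 1, 3 and 4 (horizontal axis) for the 54 members, coloured by family, with a dashed line of equal ratios. Adamts2, Adam8, Adamts3, Adamtsl5, Timp1 and Adam15 lie below -1 on array 2, while their means over the rest range from -0.30 to 0.51.

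Other transcripts moved with these on array 2. The 11 leukocyte markers, all of them above background, summed to 51837 signal units in control pool 2, against 11048 to 14181 in the other control pools and 9403 to 13454 in the mutant pools, and 9 of 11 were below -1 on array 2. Of 13 markers of uterine stroma and smooth muscle 8 were kept, and 6 of these were below -1, with Hoxa10 at -4.88 and Hoxa11 at -4.48, while Pgr, Hoxd10, Hoxd11, Emx2 and Oxtr were not above background by the rule. That list summed to 174048 in control pool 2, 108513 to 109781 in the other control pools and 119189 to 141625 in the mutant pools. Its brightest markers, Cnn1 and Actg2, weigh most in that sum and went the other way on array 2, at 0.40 and 0.77. The cushion mesenchyme list of 9 summed to 94855 in control pool 2, 57657 to 68830 in the other control pools and 47166 to 56299 in the mutant pools. The part of these cells in the member ratios of array 2 was not tested.

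Markers of the cushion mesenchyme and the myocardium also moved, and not on array 2 alone. None of the 7 endocardial markers had lower or higher values at an unadjusted p under 0.05 (limma). Their summed signal was 27798 to 31463 in control and 28312 to 31587 in mutant pools. Of the 9 cushion mesenchyme markers 4 had lower and none had higher values at an unadjusted p under 0.05 (limma; background 7.45% lower and 7.09% higher), and of the 8 myocardial markers 6 had higher and none lower values, with a summed signal of 926085 to 1081660 in mutant and 564072 to 707131 in control pools. Erythroid markers had medians of 1.81, 0.78, -0.23 and -0.03 on arrays 1 to 4. In these dissected pools, fewer cells of a type and less RNA per cell cannot be told apart. The part of cell makeup in the lower values of Adamts15, Mmp2, Mmp14 and Adamts5 was not tested.

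Of the 4 pathway lists, the matrix proteins on which Mmp and Adamts2 act had the lowest median on array 2, at -1.23, against -1.69 for the leukocyte and -3.00 for the uterine list. Of 14 Mmp substrates, all kept, none passed the threshold, 3 were lower and none higher at an unadjusted p under 0.05 (background 7.45% and 7.09%), and 9 were below -1 on array 2 (background 3.55%). Col5a2, a fibrillar collagen chain, read -0.64, -1.04, -0.39 and -0.73 (mean -0.70 ± 0.27; adjusted p = 0.14) and so was lower on every array. Its partner Col5a1 stood at -0.57 ± 0.46 and the laminin chain Lamc1 at -0.51 ± 0.50, and without array 2 they stood at -0.35 and -0.27. The most abundant, Col1a1, read -0.43, -3.58, -0.58 and -0.29, and Col3a1 and Sparc read -2.37 and -1.75 on array 2. Their summed signal was 844379 in control pool 2, 220920 to 239535 in the other control pools and 196593 to 218330 in the mutant pools.

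**Figure D5:**
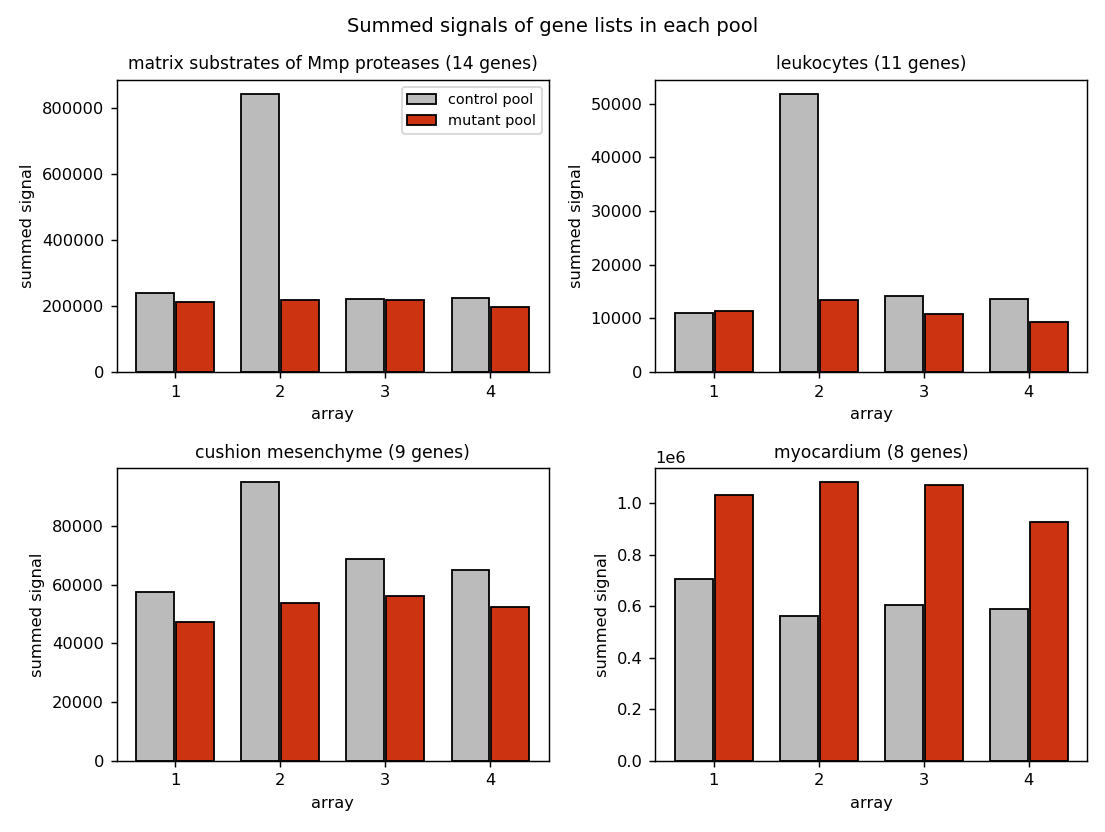
Summed signals in scanner units after normalization (vertical axes, from 0), of 4 gene lists in the control (grey) and mutant (red) pool of arrays 1 to 4 (horizontal axes). Control pool 2 is far above the other pools for the Mmp substrates and leukocyte markers and the highest for cushion mesenchyme, and the myocardial list is higher in every mutant pool than in any control pool.

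Partners of the Adam proteases included members with small spreads that array 2 shared. Of 25 listed, 23 were kept, none passed the threshold, and 4 were lower and 2 higher at an unadjusted p under 0.05 (background 7.45% and 7.09%). The Notch ligand Dll1, which Adam proteases shed, read -0.61, -0.32, -0.41 and -0.57 (mean -0.48 ± 0.14; adjusted p = 0.13). The ephrin Efna5 stood at -0.40 ± 0.09 and the neuregulin receptor Erbb3, known in cushion mesenchyme, at -0.34 ± 0.10, each lower on 4 of 4 arrays. In the other direction Nrg1, the neuregulin that signals through Erbb receptors, read 0.36, 0.31, 0.39 and 0.15 (mean 0.30 ± 0.11; adjusted p = 0.18) and was named after its values were seen. The abundant members Tspan33, Cdh2 and Tspan14 stood at -0.16 ± 0.48, -0.19 ± 0.15 and -0.13 ± 0.23. Hbegf, a growth factor that Adam proteases release, read 0.87, -0.01, 0.82 and 0.87 and passed the threshold without array 2; it was singled out after its values were seen. The list median was -0.04.

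Of 13 substrates or partners of Adamts proteases 12 were kept, none passed the threshold, and 2 were lower and none higher at an unadjusted p under 0.05 (background 7.45% and 7.09%). Ncan (neurocan) stood at -0.31 ± 0.07 and the latent TGF-beta binding proteins Ltbp3 and Ltbp1 at -0.52 ± 0.47 and -0.26 ± 0.29; without array 2 they stood at -0.30 and -0.37. The hyaluronan synthase Has2, which makes the cardiac jelly, read -0.57, -0.28, 0.01 and -0.04 (mean -0.22 ± 0.27). Fbln2 and Fbn2 stood at -0.33 ± 0.58 and -0.10 ± 0.56, with spreads wider than the means.

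Of 25 other inhibitors, activators and receptors of pericellular proteolysis 22 were kept, none passed the threshold, and 3 were lower and 2 higher at an unadjusted p under 0.05 (background 7.45% and 7.09%), 5 of 22 in all against 14.5% of all genes. Pcolce2, an enhancer of procollagen processing, read -0.48, -0.54, -0.49 and -0.35 (mean -0.46 ± 0.08; adjusted p = 0.13). The endocytic receptor gene Lrp1 stood at -0.45 ± 0.36 and Pcolce at -0.69 ± 0.66; without array 2 they stood at -0.31 and -0.37. Furin, which activates several Adam and Mmp proenzymes, and Plat stood at -0.16 ± 0.14 and -0.01 ± 0.11.

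RefSeq promoter sequences, the 250 bases before the start site in build GRCm38.p6, were matched for 31 of the 54 members (35 promoters). The T-box half-site AGGTGTGA, on either strand, was in 0 of 35 against 1.12% of all 32851 promoters. The AP-1 site TGANTCA was in 2 (5.71%, those of Adam19 and Mmp7) against 6.75%, and the hypoxia element core ACGTG in 9 (25.7%) against 16.6%. A match is a description of letters, and no match says only that these letters are not in this window. Mmp2, Adamts15, Adamts8 and Adamts5 had no entry.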

How the data were processed

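RNA from 8 AVC pools was hybridised to 4 two-channel 60-base oligonucleotide arrays on 1 slide. The authors deposited scanner files, made with Agilent Feature Extraction 9.5.1 according to the submitters' processing notes. The deposited intensity values are mean pixel signals with local median backgrounds, and the deposited log10 ratio (red over green, processed by that software) served as an alternative. It equals the values of the series table to within 5e-07.

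Intensities were corrected with normexp (offset 50), non-uniform spots were left out, and each array underwent loess normalization in which control spots carried no weight (limma 3.58.1, R 4.3.3). Of 41174 probes 28806 were kept (well above background in either channel on at least 3 arrays). Names were updated through RefSeq, and the brightest probe stood for a gene. For a member this was the brightest probe whose own symbol met the rule. Ratios were tested with lmFit and eBayes, and the procedure was tested on simulated data. Levels are after Aquantile scaling. Ratios, not channels, are the units, so the number of arrays limits the precision. Pools of 5 hearts are the replicates, per the labels.

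The members and lists were chosen with earlier results of these data known. Named by rule were all Timp genes, a fixed set of Mmp, Adam and Adamts genes, up to 6 members per direction with the smallest p among those of 1 sign, the 6 with the largest gap of 1 array, and, from each pathway list, up to 3 by p and 3 by brightness; other names were chosen after their values were seen. Alternatives left out each array or changed the ratio, offset, centring, filter, probe choice, weights, moderation or blocking. 1 gene of a pathway list and 1 probe sequence are not reported here.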

Additional observations from a re-analysis of the deposited data

Results flagged for a closer look

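In 6 members the ratio on array 2 lay farther from the nearest other array, as a share of the range of the 4, than Dixon's criterion allows. These were Adamts2 at -4.23, Adam8 at -2.92, Adamts3 at -1.89, Adamtsl5 at -1.45, Adamts4 at -0.83 and Mmp19 at -0.80, all on array 2 and all lower in the mutant. They are 11.1% of members, against 3.90% of all genes with array 2 low. No member had array 1, 3 or 4 apart by the same criterion, against 2.54% of all genes. Chance alone marks about 1 in 20 groups over all 4 arrays and both sides together. The chance rate for array 2 on the low side alone is therefore smaller. Mmp19 was above background in 2 of 4 control pools. Adamts4 stood at 8.04 in control pool 2 and between 6.86 and 6.96 in the other control pools.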

How the results depend on the processing

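The count of members past an adjusted p of 0.05 stayed at 0 except without array 2 (1 gene; 0 to 1 over the arrays left out), with array weights (10 genes, against 14.6% of all genes) and with median centring without loess (12 genes, against 40.8%); in each the cause was not tested. The weights were 0.59, 0.268, 2.96 and 2.14 for arrays 1 to 4, and the 10 genes were Mmp2, Mmp14, Mmp17, Adam1a, Adam11, Adamts5, Adamts7, Adamts8, Adamts10 and Adamts15. At an unadjusted p under 0.05 the count was 23 with array weights (34.2% of all genes) and 6 to 18 with an array left out (7.85% to 23.2% of all genes). Members of 1 sign on every array numbered 24 to 30 with an array left out, a criterion that is easier to meet on 3 arrays than on 4. Without array 2, 38.9% of members were negative throughout (22.9% of all genes) and 16.7% positive throughout (23.6% of all genes). The median of the members lay between -0.11 and -0.07 with an array left out. With the channels as 8 samples and no replicate block, 9 members had an unadjusted p under 0.05 (12 in the paired ratios; 12.7% of all genes), none passed the threshold (191 of all genes did), and the median was -0.10.

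Of 29 genes named by rule, 15 kept their sign under every alternative run for them and 14 did not. Without loess the sign turned for Timp2 (0.16), Timp3 (0.40), Mmp14 (0.31), Mmp16 (0.088), Mmp7 (-0.15), Mmp11 (0.24), Adam17 (0.16) and Adamts1 (0.25). With the processed log ratio it turned for Timp4 (0.048) and Mmp15 (-0.000115), and with array weights for Mmp15 (-0.0037), Adamts20 (0.073) and Adamtsl5 (0.061). With an array left out the ranges crossed 0 for Timp3 (-0.17 to 0.0088), Mmp15 (-0.071 to 0.079), Adam15 (-0.059 to 0.51), Adamts9 (-0.11 to 0.30), Adamts20 (-0.074 to 0.048) and Adamtsl5 (-0.40 to 0.15). The cause was not tested. Signals near background limit Timp4, Mmp7, Mmp19, Mmp24 and most germ cell members: 10 members were not well above background in some control pool.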
